A study of Mus musculus with 4 samples.

Results

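Myc, its close relative Bmyc and 6 genes tied to cell growth (Odc1, Srm, Nme1, Ncl, Npm1 and Rrs1) were followed across thymocyte stages in 2 conditions, thymus turnover and thymus autonomy. The members were a named list of 8 of the 31053 genes in the tables, and their values were read in cell barcodes with 1000 or more UMIs (unique molecular identifiers, each standing for 1 captured RNA molecule). Cells that were cycling and cells with 3 or more UMIs of Itm2a, a gene raised after positive selection, were of main interest. The main observations were these. All members but Bmyc stood higher in cycling than in resting cells of both libraries. In Itm2a-positive cells Myc, Odc1, Srm and Rrs1 stood higher in autonomy, though Odc1 did not among cells with Y-linked transcripts in both libraries. Under other choices of cells and scaling, the ratios there fell as low as 1.22 for Myc, 1.07 for Srm and 1.28 for Rrs1. Bmyc was lower in autonomy in the 5 ranges compared, from few UMIs there.

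MYC is a transcription factor that binds DNA with its partner MAX, often at the E-box motif CACGTG, and is known for driving ribosome production, polyamine synthesis and nucleotide supply in growing cells. In the thymus it is known for the growth burst after beta-selection, when cells with a productive T cell receptor (TCR) beta chain divide and pass from double negative (DN) through immature single positive (ISP) to double positive (DP), and it is low in small resting DP cells. Bmyc encodes a short protein related to the amino-terminal part of MYC that lacks its DNA-binding domain. Odc1 encodes ornithine decarboxylase, which makes putrescine, and Srm encodes spermidine synthase, the next enzyme of the polyamine pathway. Nme1 encodes a nucleoside diphosphate kinase. Ncl (nucleolin), Npm1 (nucleophosmin) and Rrs1 act in the nucleolus during ribosome assembly.

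Wild-type mouse thymi had been transplanted for 28 days, and thymocytes sorted as DN3-DN4, ISP and DP cells were profiled with a droplet assay that reads transcripts from the 5′ end. In turnover, resident thymocytes are replaced by incoming progenitors, and in autonomy the thymus keeps producing T cells from its own cells. Each condition had 1 gene expression library, so no test was possible, all intervals below are 95% intervals for counting error only, and the hosts and number of animals were not described. The turnover library kept 4227 barcodes with a median of 2112 UMIs, and the autonomy library kept 4414 with a median of 2430.5.

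Cells were placed in ranges by transcripts other than the members. An Il2ra-positive CD8-low range was set to hold cells of the DN3 kind, the cycling range held cells with at least 0.5% of UMIs in 97 cell cycle genes, and the resting range held cells with Cd8 and Rag transcripts. These are ranges cut from counts, not cell types. The cycling range held 1578 turnover and 1443 autonomy cells, but 929 and 1198 of them had a share of 0.5 to 1%. The cut fell where cells were dense, with 1146 turnover and 1619 autonomy cells at a share of 0.4 to 0.6%. The cells of 1% or more, 649 and 245, are therefore given beside the whole range, a choice made after that distribution was seen. Of markers that set no gate, Cd5, which rises with selection, stood at 996 and 999 UMIs per 1000000 UMIs of the range (CPM) in Itm2a-positive cells of turnover and autonomy, against 102 and 112 in resting cells. The 3 erythroid markers were at 0 in each range, and of the 3 B cell markers Cd79a and Ms4a1 were at 0 in turnover. Cd79a had 3 UMIs in autonomy cycling cells, and Cd79b was counted in both libraries, at 75.8 and 55.6 CPM in resting cells of turnover and autonomy.

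Transcripts of Xist alone marked 1781 autonomy and 0 turnover cells, and Y-linked transcripts alone marked 934 and 2459. The autonomy values are averages over cells of both kinds. Cells also shared TCR beta chains in autonomy: 1033 cycling cells with a productive chain held 386 different chains, against 1517 chains in 1444 turnover cells. Cells of 1 clone are not independent, and the intervals are too narrow above all for autonomy. The libraries had 29 kept barcodes in common.

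Start-site windows were at hand in RefSeq for Nme1, Odc1, Ncl and Bmyc on GRCm38.p6, the assembly of mm10. The 120 bases before the start are shown for the 2 Nme1 starts, which held the E-box CACGTG, for Odc1, which held the related motif CACGCG, and for Bmyc, which held neither. Capitals mark the motif.

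Nme1, chr11:93968273-93968392, minus strand: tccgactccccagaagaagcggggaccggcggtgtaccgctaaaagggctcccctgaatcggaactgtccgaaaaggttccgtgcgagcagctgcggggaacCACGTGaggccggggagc

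Nme1, chr11:93968026-93968145, minus strand: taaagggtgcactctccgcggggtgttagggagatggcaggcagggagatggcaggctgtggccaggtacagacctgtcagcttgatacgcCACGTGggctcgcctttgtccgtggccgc

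Odc1, chr12:17544753-17544872, plus strand: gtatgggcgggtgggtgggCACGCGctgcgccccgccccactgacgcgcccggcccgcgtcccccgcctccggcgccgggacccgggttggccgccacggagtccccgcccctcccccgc

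Bmyc, chr2:25706759-25706878, plus strand: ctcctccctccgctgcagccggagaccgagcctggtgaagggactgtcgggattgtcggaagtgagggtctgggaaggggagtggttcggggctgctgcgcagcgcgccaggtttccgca

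The first base of the E-box lay 18 bases before the upstream Nme1 start and 29 before the other. CACGCG or its reverse complement CGCGTG began 101 and 180 bases before the Odc1 start used, 17544873, and the second of these lies outside the stretch shown. The annotated gene begins upstream of that start, at 17544808, so part of the Odc1 stretch shown lies within the gene. Over windows of 250 bases before to 50 after a start, searched on both strands, CACGTG was present in 7.15% of 32851 windows and CACGCG or CGCGTG in 9.27%. Neither was in the Bmyc or Ncl window. A match is a description of letters, not of binding.

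On the same assembly, in the RefSeq annotation, Myc lies on chromosome 15 (61985341 to 61990361), Bmyc on chromosome 2 (25706879 to 25707721) and Srm on chromosome 4 (148591513 to 148594619). Odc1 lies on chromosome 12 (17544808 to 17551502) and Rrs1 on chromosome 1 (9545408 to 9547455). Ncl spans 86344719 to 86359455 on chromosome 1. On chromosome 11, Npm1 spans 33152498 to 33164142 and Nme1 spans 93958925 to 93968272. All 8 members are annotated as protein-coding.

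Myc was high in Il2ra-positive CD8-low cells, lower in cycling cells and lowest in resting cells, and it was high again in Itm2a-positive cells. In turnover it stood at 344 CPM (311 to 381) in Il2ra-positive cells, 128 (122 to 134) in cycling cells, 13.4 (10.2 to 17.3) in resting cells and 96.5 (69.8 to 130) in Itm2a-positive cells. In autonomy the 4 levels were 432 CPM (379 to 491), 91.4 (84.4 to 98.9), 19.99 (16.5 to 23.9) and 236 (208 to 267). The order differed between libraries in 1 place: turnover put cycling above Itm2a-positive cells with overlapping intervals, and autonomy put Itm2a-positive above cycling cells with intervals far apart. The plot of levels by range shows that Srm dropped as far in resting cells, that Ncl spanned the least of these 7 genes, and that Bmyc in turnover stayed between 15.4 and 32.2 CPM.

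**Figure D1:**
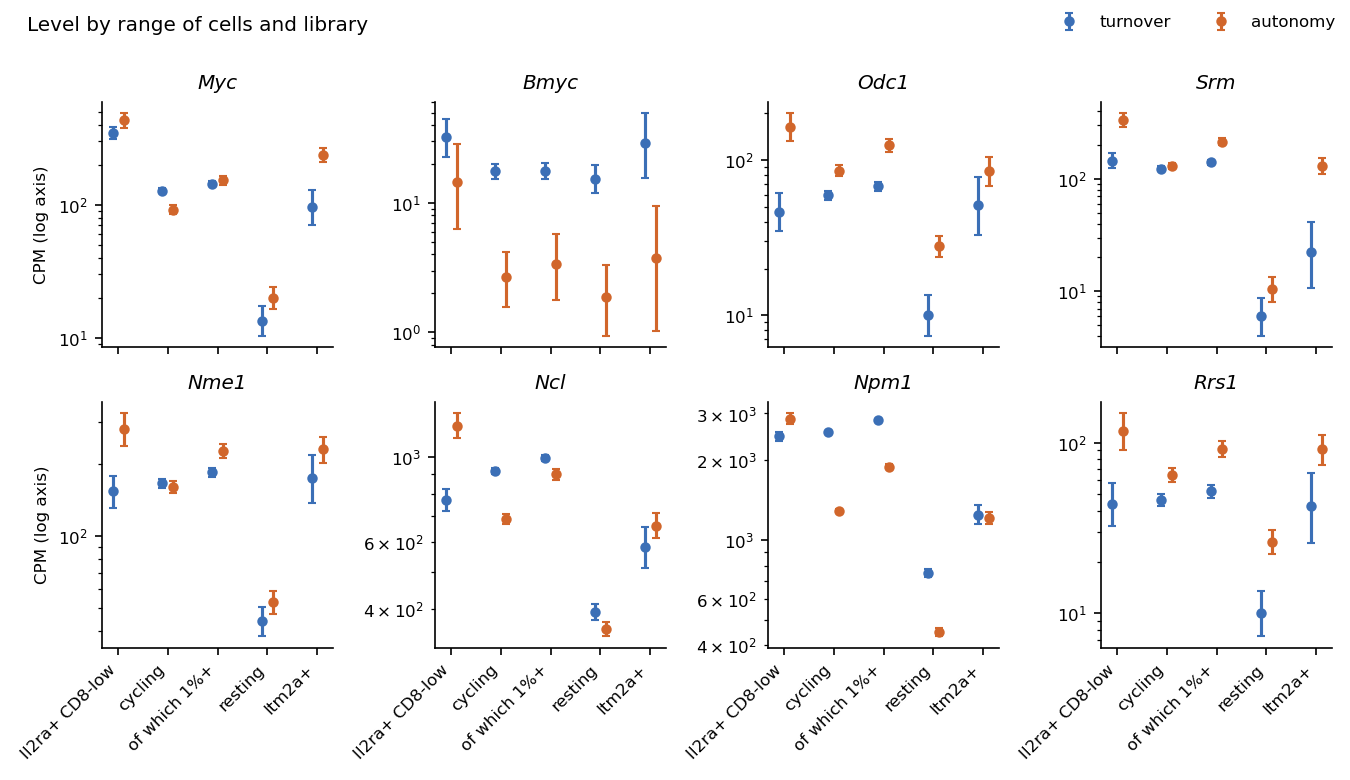
Level of each member in CPM (log axis) by range of cells in turnover (blue) and autonomy (orange). Points are pooled UMIs over total UMIs, bars are 95% Poisson intervals, and "of which 1%+" is the part of the cycling range with 1% or more cell cycle UMIs. Resting cells are lowest for every member, for Bmyc in turnover only slightly below cycling cells. Bmyc in autonomy lies below turnover in every range plotted.

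Cycling over resting cells was compared within each library, where a gene was called at 1.5-fold or more with 100 or more UMIs over both sides. In turnover 7 of 8 members were called higher in cycling cells, where 17.2% of 8533 genes tested were called. In autonomy 7 were called higher against 12.5% of 8515 genes, and the remaining member, Bmyc, had too few UMIs. Both counts of 7 were far above the background.

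The polyamine enzyme Srm had the steepest step of the members. Its level was 122 CPM in cycling and 6.03 in resting cells of turnover, a ratio of 20.3 (13.9 to 30.9), and 130 against 10.5 in autonomy, a ratio of 12.3 (9.54 to 16.2). Myc differed 9.53-fold (7.36 to 12.5) in turnover and 4.58-fold (3.75 to 5.62) in autonomy. Odc1, at 59.3 against 10.1 CPM in turnover and 85.4 against 27.9 in autonomy, differed 5.89-fold and 3.06-fold. For the nucleolar genes the ratios ran from 2.33 (Ncl) to 4.60 (Rrs1) in turnover and from 1.94 (Ncl) to 2.86 (Npm1) in autonomy, and Nme1 had 3.81 and 3.05. Bmyc was the exception: 17.5 CPM in cycling and 15.4 in resting turnover cells, a ratio of 1.14 (0.865 to 1.51).

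The step lay between the cells of 1% or more and those of 0.5 to 1%. Their depth differed as well, with medians of 15434 against 1777 UMIs in turnover and 14274 against 2200 in autonomy. Resting cells had medians of 1960 and 2368 UMIs, and the part of depth in these ratios was not tested. In turnover the cells of 1% or more held 7 members called higher than the cells of 0.5 to 1% (background 18.1%), and in autonomy 7 as well (18%). Myc was 144 against 32.1 CPM in turnover and 152 against 9.68 in autonomy. Cells of 0.5 to 1% against resting cells gave 1 call of the 4 members with enough UMIs in turnover, Myc higher (2.39-fold, 61 and 60 UMIs, background 2.26%). Srm there was 17.9 against 6.03 CPM from 34 and 27 UMIs, too few for a call. In autonomy 1 of 7 was called higher, Srm (1.68-fold, 51 and 62 UMIs, background 1.83%). Myc was called lower in that comparison (0.485, 0.309 to 0.737, background 0.774%). With the cells of 1% or more in place of the whole range, the ratio over resting cells was 10.7 and 7.62 for Myc and 23.2 and 20.3 for Srm in turnover and autonomy.

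Between the libraries, cycling cells gave different answers for the whole range and for its upper part. In the whole range Myc had 1677 UMIs (128 CPM) in turnover and 620 (91.4 CPM) in autonomy, a ratio of 0.716 (0.652 to 0.785). The cells of 1% or more had 1616 UMIs (144 CPM) and 592 (152 CPM), a ratio of 1.06 (0.961 to 1.16). The Myc level of the upper part was thus close in the libraries, and autonomy held a larger share of cells from the lower part. In cells of 0.5 to 1%, 2 members, Odc1 and Rrs1, were called higher in autonomy (background 21.4%) and 1, Npm1, lower (4.07%), and Myc had 61 and 28 UMIs, too few for a call.

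In the whole cycling range 0 members were called higher in autonomy, where 36.1% of 8827 genes were, and 2 were called lower, Bmyc and Npm1, where 4.84% of genes were. The 2 lower calls of 8 stood above their background, and the 0 higher calls below theirs. Among cells of 1% or more 3 members were called higher, Odc1, Srm and Rrs1, against 20.5% of 7868 genes, and 1 lower, Bmyc, against 2.89%. The count of 3 of 8 stood above that background by little more than 1 gene. Mature transcripts moved with this comparison: cells with 2 or more UMIs of S1pr1 and Klf2 were 36 of the 245 autonomy and 2 of the 649 turnover cells. Without them, an alternative added after the data were seen, the ratios were 1.16 for Myc, 1.90 for Odc1, 1.87 for Rrs1 and 1.48 for Srm, which leaves 2 members called higher.

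Odc1 stood at 67.8 CPM in turnover and 124 in autonomy in cells of 1% or more, a ratio of 1.84 (1.64 to 2.06), and at 1.44 (1.29 to 1.61) in the whole range. Srm stood at 140 and 213 CPM, a ratio of 1.52 (1.40 to 1.65), and at 1.06 (0.974 to 1.15) in the whole range. Odc1 was further apart in cells of 0.5 to 1%, at 8.95 and 32.9 CPM from 17 and 95 UMIs (3.67-fold, 2.18 to 6.57), and Srm, with 34 and 51 UMIs there, was too low for a call. Rrs1 had 51.7 and 91.8 CPM, 1.77-fold (1.55 to 2.03). Npm1, the most counted member, ran the other way, with 2833 and 1892 CPM, a ratio of 0.668 (0.651 to 0.685) that stopped just short of a call. In the whole range Npm1 was 2552 and 1287 CPM, 0.504-fold (0.492 to 0.516). Nme1 (1.23) and Ncl (0.905) were not called in either.

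**Figure D2:**
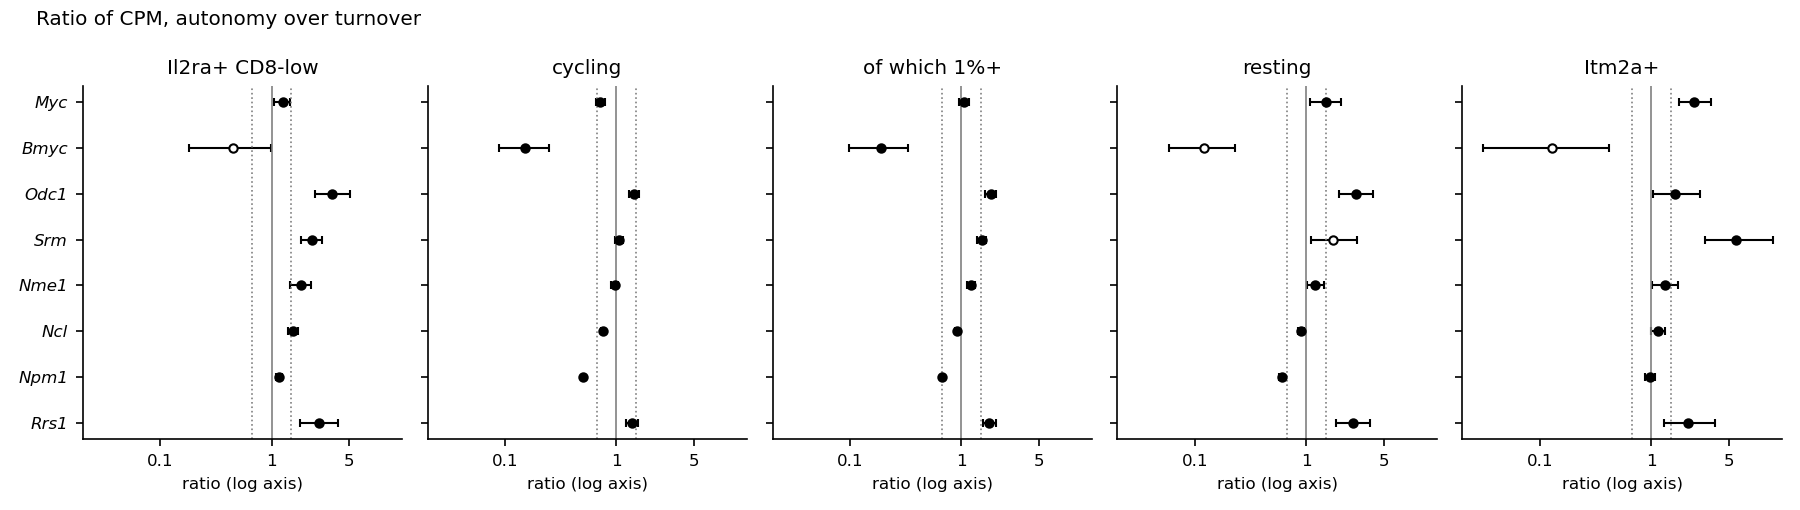
Ratio of CPM, autonomy over turnover (log axis), for each member in 5 ranges of cells, with 95% intervals for counting error. Open circles have fewer than 100 UMIs and dotted lines mark 1.5-fold. Odc1 and Rrs1 lie right of 1 in all 5 panels and Bmyc lies left of 1 in all of them.

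Scaling mattered for the whole range. With trimmed mean (TMM) factors in place of total UMIs the median log2 ratio of tested genes moved by -0.38, from 0.36 to -0.02, and 18.1% of genes were then called higher and 17.2% lower. The Myc ratio became 0.549 and 4 members were called lower. Ranks do not depend on the scaling: among tested genes of the whole range, 7.27% had a lower ratio than Myc, 0.068% than Bmyc, 1.03% than Npm1, 32.5% than Srm and 60.3% than Odc1. For the upper part these shares were 42.6% for Myc, 80.3% for Srm, 89.9% for Odc1 and 88.7% for Rrs1.

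Coreceptor transcripts order cycling cells along the path from DN to DP, and the cells of 1% or more were split into CD8-low, CD8 alone and both CD4 and CD8. Myc was lowest at the end of this order in both libraries. It was 256 CPM in CD8-low, 144 in CD8-alone and 45.5 in double coreceptor cells of turnover, and 207, 168 and 34.6 CPM in autonomy. In autonomy 1 of the 11 CD8-low cells held 25 of their 47 Myc UMIs, so the first step there rests on that cell. The double coreceptor cells held 96 and 22 Myc UMIs in 210 and 73 cells.

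Double coreceptor over CD8-alone cells gave 7 members called lower in turnover, against 8.32% of 6670 genes, and 7 in autonomy, against 8.64% of 4709. Myc had a ratio of 0.317 (0.254 to 0.391) and 0.206 (0.128 to 0.315) in turnover and autonomy. Srm went from 147 to 37.0 CPM in turnover, a ratio of 0.252 (0.198 to 0.317), and from 238 to 75.6 in autonomy, 0.318 (0.232 to 0.426). The nucleolar genes Npm1 (0.40 and 0.41), Rrs1 (0.360 and 0.384) and Ncl (0.575 and 0.580) had close ratios in the libraries, as did Odc1 (0.622 and 0.546) and Nme1 (0.528 and 0.457). Bmyc in turnover was flat, at 18.8, 18.1 and 16.1 CPM along the order. The median depth per cell also fell, from 19055.5 to 8669 UMIs in turnover and from 16684.5 to 9035 in autonomy, and its part in these ratios was not tested.

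**Figure D3:**
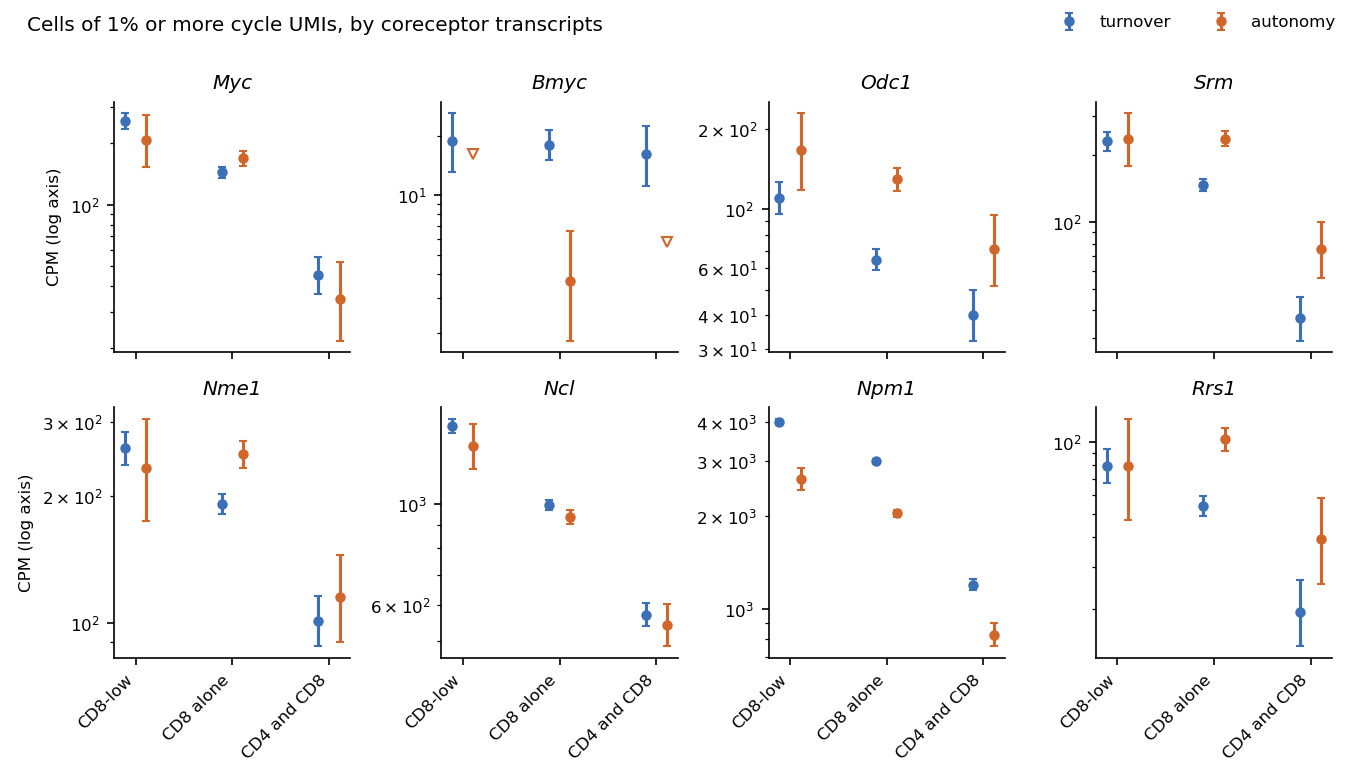
Level of each member in CPM (log axis) in cells with 1% or more cell cycle UMIs, split by coreceptor transcripts, in turnover (blue) and autonomy (orange), with 95% Poisson intervals. Open triangles give the upper bound where no UMI was counted. Levels fall to the CD4 and CD8 cells for every member but Bmyc, whose turnover level falls only slightly.

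Within CD8-alone cells of 1% or more, the most numerous of these, the library ratios were 1.17 (1.05 to 1.30) for Myc, 2.0 (1.74 to 2.29) for Odc1, 1.62 (1.47 to 1.78) for Srm and 1.90 (1.63 to 2.21) for Rrs1. Odc1, Srm and Rrs1, 3 members, were called higher (background 20.9%) and 1, Bmyc, lower (2.57%). In double coreceptor cells Odc1 (1.76) and Srm (2.04) were called higher (15.9%), and Myc was at 0.761 (0.456 to 1.22). Turnover and autonomy had 85 and 45 Odc1 UMIs and 78 and 48 Srm UMIs there. The higher Odc1 and Srm in autonomy was thus seen on both sides of this step, while Myc stayed under 1.5-fold in each. The 36 autonomy and 2 turnover cells with 2 or more UMIs of S1pr1 and Klf2 were not left out of the coreceptor groups. Their part in these ratios was not tested.

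Cells of 1% or more were also split by whether S phase or G2/M transcripts prevailed. Myc was 145 CPM in S and 144 in G2/M cells of turnover, a ratio of 0.991 (0.890 to 1.10), and 171 and 138 CPM in autonomy, 0.808 (0.685 to 0.953). Srm and Rrs1 were called lower in G2/M in both libraries, Srm at 0.617 and 0.473 and Rrs1 at 0.621 and 0.569. They were 2 of 8 members called lower in turnover (background 3.31%) and 2 of the 4 in autonomy (4.94%), where Odc1 (0.625) and Npm1 (0.662) were the others. Early cycle cells were therefore the richer in Srm and Rrs1 transcripts.

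Il2ra-positive CD8-low cells held the highest Myc level of each library. There were 111 such cells in turnover and 30 in autonomy. In autonomy 5 members were called higher, where 19% of 2446 genes were, and 0 lower, where 11.4% were. Odc1 was 46.5 CPM in turnover and 164 in autonomy, a ratio of 3.53 (2.48 to 5.07). Srm (145 and 334 CPM, 2.30-fold), Rrs1 (43.8 and 117, 2.66-fold), Nme1 (154 and 281, 1.83-fold) and Ncl (773 and 1208, 1.56-fold) were the other called members. Myc itself differed by 1.26 (1.06 to 1.48).

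Depth, cycling and post-selection transcripts moved with this difference, and their part in it was not tested. Median depth was 8521 UMIs in turnover and 19558.5 in autonomy, and 23 of 111 turnover cells against 17 of 30 autonomy cells had 1% or more cell cycle UMIs. The 6 post-selection markers summed to 71.6 CPM in turnover and 411 in autonomy, with Nr4a1 at 8.95 and 89.4, Ccr7 at 0 and 83.9 and Cd5 at 2.68 and 49.3. Over the cycling Il2ra-positive cells alone, Odc1 was 85.0 CPM (60.1 to 117) in turnover and 176 (139 to 220) in autonomy, Srm was 212 (172 to 260) and 371 (316 to 433), and Myc was 302 (253 to 357) and 375 (320 to 438). Intervals of Odc1 and Srm still lay apart, and those of Myc overlapped.

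After selection, Itm2a-positive cells had more Myc in autonomy. The gate held 127 turnover cells with 43 Myc UMIs (96.5 CPM) and 193 autonomy cells with 253 (236 CPM), a ratio of 2.44 (1.76 to 3.46). In all 4 members were called higher in autonomy, against 15.1% of 2601 genes, and 0 lower, against 6%. Srm was the most different, with 10 UMIs (22.4 CPM) against 140 (130 CPM), a ratio of 5.82 (3.07 to 12.4) that 99.4% of tested genes lay below. Odc1 was at 51.6 and 84.8 CPM, 1.64-fold (1.03 to 2.72), but 0.936 (0.389 to 2.18, 15 and 11 UMIs) among cells with Y-linked transcripts alone in both libraries. Rrs1 was at 42.6 and 91.3 CPM, 2.14-fold (1.30 to 3.71). Under other choices of cells and scaling the ratio ran from 1.07 to 6.81 for Srm and from 1.28 to 2.90 for Rrs1. Nme1 (1.32), Ncl (1.14) and Npm1 (0.971) were not called.

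The turnover level rested on few cells. One turnover cell held 17 of the 43 Myc UMIs, and without the 5% of cells with the most UMIs the counts were 9 and 207 and the ratio was 9.21 (4.76 to 20.4). The autonomy cells were deeper, with a median of 4344 UMIs against 2904. In cells of 2000 to 5000 UMIs in both libraries Myc had 9 and 62 UMIs and a ratio of 5.01 (2.48 to 11.5), and Srm had 4 and 36 UMIs and a ratio of 6.55. After each cell was thinned to 1000 UMIs, Myc had 7 and 34 UMIs, a ratio of 3.20 (1.39 to 8.54), and Srm had 0 and 20 UMIs. These matched counts are under the 100 UMIs asked for a call, and the Myc intervals overlap that of the whole gate.

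Where cycling cells with Itm2a were counted as Itm2a-positive the Myc ratio was 1.22 (1.04 to 1.43), since those 65 turnover cells brought 279 Myc UMIs and the 28 autonomy cells 43. Transcripts of mature cells moved with the difference as well: S1pr1 and Klf2 were at 0 in turnover and at 26.1 and 110 CPM (28 and 118 UMIs) in autonomy. Without cells with 2 or more UMIs of S1pr1 and Klf2, Myc had 43 and 194 UMIs and a ratio of 2.24.

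Against resting cells of the same library, Itm2a-positive cells had 3 members called higher in turnover (background 9.56%, with 4 members under 100 UMIs) and 7 in autonomy (11.8%). Myc was 7.19-fold (4.75 to 10.8) and 11.8-fold (9.44 to 14.8) above resting cells. Srm was 12.4-fold above in autonomy, while its 10 and 27 UMIs in turnover were too few for a call. Against cells of 1% or more, Myc in Itm2a-positive cells was 0.670 (0.483 to 0.907) in turnover and 1.55 (1.33 to 1.80) in autonomy, and Srm was 0.160 and 0.613. In autonomy Myc was the 1 member called higher there (background 24.3%).

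Myc was concentrated in a part of the cells, and other members were too. Of the cells of 1% or more, the share with a Myc UMI was 44.2% (40.4 to 48.1) in turnover and 44.1% (37.8 to 50.5) in autonomy, where evenly spread UMIs at the same depth would give 82.5% and 82.0%. Srm had 51.3% and 58.0% against 81.9% and 88.5%, and Odc1 47.9% and 62.0% against 62.1% and 77.2%. Nme1 and Rrs1 also fell short in both libraries, while Ncl and Npm1 had a UMI in at least 96.3% of cells. The range pools coreceptor groups of different Myc level. In CD8-alone cells of 1% or more the Myc shares were 53.5% and 57.5% against 87.6% and 90.3%. In Itm2a-positive cells 11.0% and 29.0% had a Myc UMI, against 27.4% and 67.3% if even. After thinning to 1000 UMIs the Myc shares were 9.24% and 13.1% in cells of 1% or more and 5.51% and 10.9% in Itm2a-positive cells. Resting cells, at median depths of 1960 and 2368 UMIs, gave 1.69% and 2.59% unthinned and 0.484% and 1.12% thinned, the lowest Myc shares of these ranges. For Bmyc, with 200 UMIs in the 649 turnover cells of 1% or more, 23.9% (20.7 to 27.4) had a UMI against 25.3% if even. At so few UMIs per cell this share is a weak measure of spread, so no contrast with Myc was drawn.

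**Figure D4:**
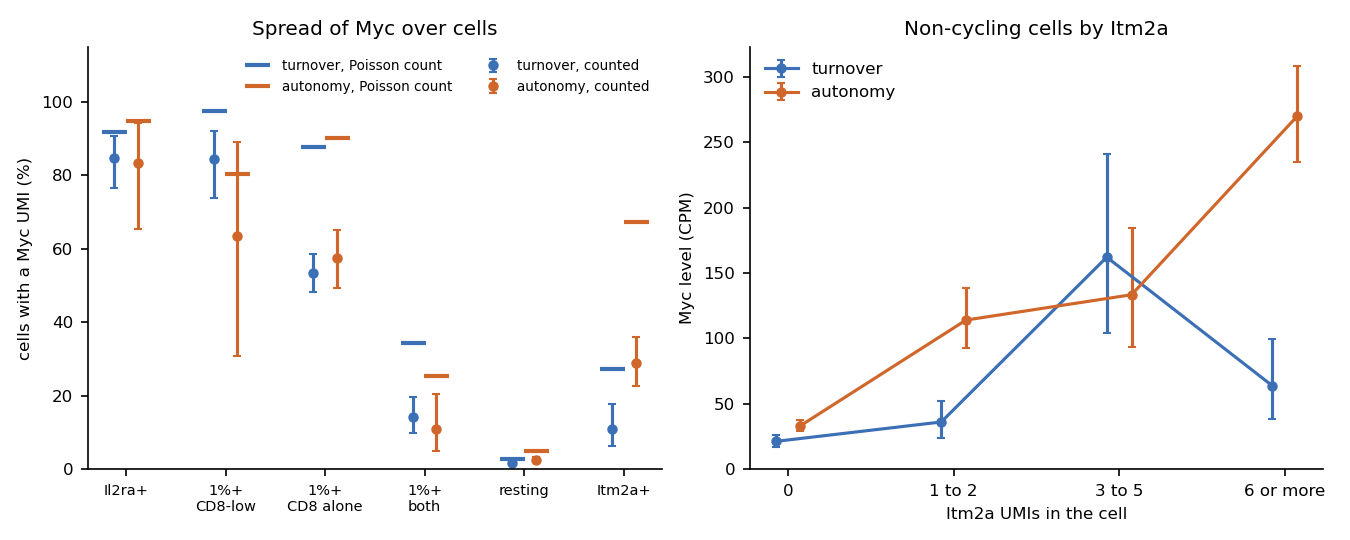
Left, percent of cells with a Myc UMI in each range, counted (points, 95% exact binomial intervals) and as evenly spread UMIs at each cell's depth would give (horizontal dashes), in turnover (blue) and autonomy (orange). Right, Myc level in CPM in non-cycling cells by the number of Itm2a UMIs in the cell, with 95% Poisson intervals. Counted shares lie below the even spread in every range, though the interval of autonomy CD8-low cells spans it, and autonomy reaches 270 CPM at 6 or more Itm2a UMIs against 63.8 in turnover.

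Among CD8-alone cells of 1% or more, cells with a Myc UMI were compared with cells without one, a split chosen after the values were seen. Depth differed, with medians of 23678 and 13708 UMIs in turnover and 19919.5 and 14783 in autonomy, and its part was not tested. Apart from Myc, which the split fixes, 3 members were called higher in Myc-positive turnover cells (background 2.2%): Srm (172 against 98.8 CPM, 1.74-fold), Odc1 (75.7 against 44.0, 1.72-fold) and Bmyc (1.56-fold). In autonomy 1 was, Odc1 (148 against 96.2 CPM, 1.54-fold, background 2.48%), and Srm was at 1.27. Npm1 was alike in the libraries, at 1.44 and 1.45.

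In Itm2a-positive cells of autonomy, 56 cells had a Myc UMI and 137 had none, at median depths of 5921 and 4050 UMIs. Besides Myc, 3 members were called higher in the former (background 5.33%). Srm was 255 against 49.3 CPM, a ratio of 5.17 (3.46 to 7.93), Npm1 had 1.84 and Ncl 1.62. Odc1, with 55 and 36 UMIs, was at 2.34 and under the count for a call. In turnover 14 of 127 cells had a Myc UMI, and Srm was at 23.2 and 22.2 CPM from 2 and 8 UMIs.

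By number of Itm2a UMIs in non-cycling cells, Myc in autonomy was 33.2 CPM (28.96 to 37.9) with none, 114 (93.0 to 138) with 1 to 2, 133 (93.5 to 185) with 3 to 5 and 270 (235 to 308) with 6 or more. In turnover the levels were 21.2 (17.2 to 25.8), 36.0 (23.8 to 52.4), 162 (104 to 241) and 63.8 (38.4 to 99.6). The turnover value at 3 to 5 holds the cell with 17 UMIs among 24. Non-cycling cells here included the mature range (2 or more UMIs of S1pr1 and Klf2), with 103 cells in autonomy and 2 in turnover. Those held 154 and 0 Myc UMIs, all in cells with fewer than 3 Itm2a UMIs, and their part in these levels was not tested. Median depth also rose from cells with no Itm2a UMI to those with 6 or more, from 2388 to 4385 UMIs in autonomy and from 1960 to 3012 in turnover. The part of depth was not tested. With mature cells included, cells with more Itm2a had more Myc in autonomy at each step except between 1 to 2 and 3 to 5. There the intervals overlapped.

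Bmyc was the member with the widest difference between libraries. Over all cells it had 363 UMIs (18.1 CPM, 16.3 to 20.1) in turnover and 52 (3.20 CPM) in autonomy, a ratio of 0.177 (0.130 to 0.237) below which 0.111% of 9913 tested genes lay. Il2ra-positive cells had 32.2 and 14.6 CPM from 36 and 8 UMIs. Cycling cells had 17.5 and 2.65, and resting cells 15.4 and 1.86 CPM. Itm2a-positive cells had 29.2 and 3.73 CPM from 13 and 4 UMIs. Turnover was thus higher in each of these ranges, with the narrowest gap in Il2ra-positive cells.

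Where G2/M transcripts led in cells of 1% or more, Bmyc had 146 UMIs in turnover and 0 in autonomy, at most 0.0715-fold when the floor is 3 counts in the autonomy cells. S phase cells of autonomy held all 13 Bmyc UMIs of the upper part, and 3 of those were in 1 cell. In double coreceptor cells the bound was 0.293-fold, and in CD8-low cells 0.704-fold. Both kinds of autonomy cells were low: in cycling cells the ratio was 0.227 (0.122 to 0.388) against turnover for cells with Xist alone and 0.0997 (0.0204 to 0.295) for cells with Y-linked transcripts alone.

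Over all cells, 0 members were called higher in autonomy (background 31.8%) and 2 lower, Bmyc and Npm1 (7.08%). The mix of ranges differed: cells of 1% or more gave 56.0% of all turnover UMIs and 23.9% of autonomy UMIs. They gave 72.5% and 40.9% of Myc UMIs, and 86.0% and 60.0% of Srm UMIs. With the autonomy levels weighted to the turnover mix of ranges, the ratio moved from 0.801 to 1.11 for Myc, from 0.931 to 1.61 for Srm, from 1.36 to 2.03 for Odc1, from 1.39 to 1.91 for Rrs1 and from 0.481 to 0.695 for Npm1. Bmyc stayed at 0.19, from 0.177.

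In resting cells 2 members were called higher in autonomy, Odc1 (10.1 and 27.9 CPM, 2.78-fold, 1.99 to 3.96) and Rrs1 (10.1 and 26.3 CPM, 2.61-fold), against 22.8% of 7918 genes, and 1 lower, Npm1 (748 and 449 CPM, 0.601-fold), against 3.62%. A count of 2 of 8 is close to that background. Myc was at 1.49 (1.08 to 2.07) from 60 and 118 UMIs. Odc1 and Rrs1 were above turnover in all 5 ranges, and in the whole cycling range without reaching 1.5-fold.

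Dtx1, a Notch target, was counted at 3.64 CPM in turnover and 244 in autonomy, and autonomy cells with and without a Dtx1 UMI were compared. In the whole cycling range 580 cells had one, and Myc was 120 CPM in them against 50.5 in the other 863, a ratio of 2.38 (1.97 to 2.89). There 5 members were called higher (background 6.94%). The cells of 1% or more made up 173 of the 580 and 72 of the 863, and within them the ratio was 1.25 (1.02 to 1.53) and 0 members were called (1.63% higher, 1.9% lower). In resting cells Myc was 28.3 against 12.1 CPM, 2.33-fold (1.56 to 3.54, background 1.09%). In Itm2a-positive cells 22 cells had Dtx1, and Myc was 126 CPM in them against 258, a ratio of 0.486 (0.302 to 0.748, background 17.5% lower). Cells with a Dtx1 UMI were deeper than those without. The medians were 2580 and 2203 UMIs in the whole cycling range, 2531 and 2264.5 in resting and 6287 and 4278 in Itm2a-positive cells. The part of depth was not tested.

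Genes of these pathways were read from fixed lists, counted in the whole cycling range as autonomy over turnover beside a median log2 ratio of 0.36 over all tested genes. The lists hold members too, among them Bmyc, Npm1 and Rrs1, and all list counts include them. Of 15 MYC network genes, 12 had enough UMIs, 6 were called higher and 2 lower, with a median log2 ratio of 0.69. Over all genes 36.1% were called higher and 4.84% lower in this comparison, so 6 of 12 was not far above background. Mxd4, a MAX partner that acts against MYC, was the highest, at 51.5 CPM in turnover and 234 in autonomy, 4.55-fold (4.15 to 4.98), and Mxd1 followed at 2.51-fold. Mxd3 was at 0.657 and Bmyc was the lowest. At 1% or more Mxd4 was 27.1 and 55.8 CPM, 2.06-fold. Max was at 82.0 and 121 CPM, 1.47-fold. Mycn had 17 and 6 UMIs and Mycl had 0 in both, so neither relative was counted at a level like that of Myc.

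Of 15 polyamine genes, 14 had enough UMIs, 3 were called higher and 0 lower (median log2 0.26), a smaller share higher than the 36.1% of all genes. Smox, spermine oxidase, was 2.65-fold and Oaz2, an inhibitor of ornithine decarboxylase, 1.92-fold, while Amd1 (0.746) and Amd2 (0.689) were lowest. Azin1 was at 1.21, Oaz1 at 0.964 and Sat1 at 1.18. Of 40 ribosome assembly genes 1, Bop1 (1.63-fold), was called higher, well under that background, and 4 lower against 4.84% of all genes (median log2 -0.13), with Rrp12 at 0.611 and the member Npm1 at the low end. Of 20 nucleotide and one-carbon genes 1 was called higher, Impdh1 (2.24-fold), and 1 lower, Impdh2 (0.628), with a median log2 of -0.30. Mthfd1l (1.46) and Nme2 (0.678) came next at either end. Of 28 translation and chaperone genes 2 were called higher, Eif3b (1.57-fold) and Slc7a5 (1.56-fold), and 2 lower, Eif4ebp1 (0.591) and Hspe1 (0.631), with a median log2 of -0.34. For these last lists too the share called higher was under that of all genes.

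From resting to cycling cells 32 of 40 ribosome assembly genes were called higher in turnover and 24 of 38 with enough UMIs in autonomy, against 17.2% and 12.5% of all genes, with median log2 ratios of 1.40 and 0.98 against -0.45 and -0.29 over all tested genes. The nucleotide list had 19 of 20 and 18 of 20 called higher. The translation and chaperone list had 23 of 28 and 20 of 27. The MYC network had 2 higher and 7 lower of 11 in turnover and 2 and 5 of 11 in autonomy. The polyamine list had 6 higher and 3 lower of 14 and 5 and 2 of 13. Over all genes 43.4% and 24.3% were called lower in turnover and autonomy. The higher calls of the MYC network were thus close to background, and its lower calls stood above theirs by few genes. In Itm2a-positive cells of autonomy over turnover, 8 of 23 ribosome assembly genes were called higher and 0 lower, and 6 of 23 translation and chaperone genes were higher and 0 lower, where 15.1% of all genes were called higher and 6% lower, with median log2 ratios of 0.26 and 0.21 against 0.00 over all tested genes. For Itm2a-positive cells with a Myc UMI in autonomy, 17 of 20 ribosome assembly genes were called higher than in cells without one (median log2 0.82), against 5.33% of all genes. The ribosome assembly counts include members such as Npm1, so they are not separate from the member calls.

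Nme2 is a close copy of Nme1, at 914 and 620 CPM in cycling cells, and Npm1 has processed copies in the genome. How reads shared between copies were counted is not given in the sources used here, so Nme1 and Npm1 levels carry that uncertainty.

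The genes whose pattern was most like Myc, by Pearson r of log2(CPM + 10) over 10 library-by-range groups among 8998 genes, were 9130401M01Rik (0.99), Bri3bp (0.98) and St6galnac4 (0.98). Over the 9 groups of 20 or more cells they were Rcl1 (0.98), 9130401M01Rik (0.98) and Rexo2 (0.98), so 1 of 3 names was in both. Among the members, r with Myc over the 9 groups was 0.91 for Srm, 0.91 for Nme1 and 0.27 for Bmyc. For Bmyc the nearest genes were Gstm1 (0.90), 2410015M20Rik (0.90) and H1f0 (0.89) over 10 groups, and Hddc2 (0.92), Tbca (0.92) and Aimp1 (0.89) over 9. The groups share libraries and differ in depth, so these values are descriptions.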

How the data were processed

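The deposited tables held UMI counts per gene and barcode. The submitters' processing notes name the build mm10 and the tools Seurat 3.1.3.9002 and Cell Ranger 3.0.2; annotation and cell calling are not given in the sources used here. The V(D)J tables served only to count shared chains. The members, gene lists and ranges were chosen with earlier results of these data known.

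Barcodes with 1000 or more UMIs were kept, leaving out 147 turnover and 173 autonomy barcodes. In this order, ranges were: 5 or more macrophage UMIs; 2 or more Il2ra UMIs with Cd8a plus Cd8b1 under 500 CPM and Cd4 under 150; 5 or more UMIs and 0.5% of UMIs in the cell cycle list; 3 or more Itm2a UMIs; 2 or more UMIs of S1pr1 and Klf2; Cd8 with Rag UMIs. CPM was the gene's pooled UMIs over all UMIs of the range, scaled. Levels have exact Poisson, ratios conditional binomial and shares exact binomial intervals. No doublet caller was run. Named genes were all members, 4 MYC network and 4 polyamine genes, the 2 highest and 2 lowest of each list in cycling cells, and the 3 genes most like Myc and Bmyc; Dtx1 and Cd5 were added after values were seen. So were the cells of 1% or more, their splits, the Myc, Dtx1 and even-spread comparisons, and the weighting to 1 mix. Ratios were tested on simulated data with independent counts, which do not speak to variation between cells. R 4.3.3 with edgeR 4.0.16 gave the TMM factors only. All else ran in Python 3.11.15 with pandas 2.3.3, scipy 1.17.1, matplotlib 3.10.9 and numpy 2.4.6.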

Additional observations from a re-analysis of the deposited data

Results flagged for a closer look

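For 3 members the ratio of autonomy over turnover lay on opposite sides of 1 in different ranges, with intervals that did not reach 1, and the difference between ranges was not tested. Myc was 2.44 in Itm2a-positive cells and 0.716 in the whole cycling range. Ncl was 1.56 in Il2ra-positive CD8-low cells and 0.752 in the cycling range, and Npm1 was 1.17 and 0.504 in the same ranges. Among cycling cells of 1% or more the ratios were 1.06 for Myc, 0.905 for Ncl and 0.668 for Npm1, so Myc did not lie below 1 there.

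Within autonomy, Myc in cells with a Dtx1 UMI over cells without one was 2.38 in the cycling range and 0.486 in Itm2a-positive cells, and this difference was not tested either. Among cycling cells of 1% or more, 0 members were called in the Dtx1 comparison.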

How the results depend on the processing

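No paired analysis was possible because each condition had 1 library. Of 399 member ratios under alternatives, 290 stayed within the interval of the value reported and 108 moved outside it. In all 22 crossed 1, of which 21 started from a value under 1.5-fold in either direction. The other started past it: Odc1 in Itm2a-positive cells was 0.936 (11 autonomy and 15 turnover UMIs) with Y-linked cells of both libraries, a choice made after seeing the data, as were the range of 2000 to 5000 UMIs and cycling cells without S1pr1 and Klf2. Thinned Srm in Itm2a-positive cells (0 turnover and 20 autonomy UMIs) gives no ratio.

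In cycling cells the Myc ratio of 0.716 became 0.549 with TMM factors, 0.547 thinned to 1000 UMIs, 0.403 without the 5% deepest cells, 1.06 at a cycle share of 1%, 0.977 and 0.606 with autonomy cells of Xist or Y-linked transcripts alone, and 0.553 with Y-linked cells of both libraries. Members called higher, 0 as reported, were 1 thinned (where no minimum of UMIs was asked) and 3 at 1% (background 20.5%). They were 2 with Xist cells (28.8%), 1 with Y-linked autonomy cells (30.8%) and 1 with Y-linked cells of both. The counts with Xist cells and with Y-linked autonomy cells did not exceed their backgrounds. Members called lower, 2 as reported, were 4 with TMM (background 17.2%), thinned or without the deepest cells, 1 at 1% (2.89%) and 1 at a 2-fold threshold. Alternatives without a background, here and below, had no share over all genes computed.

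In Itm2a-positive cells the Myc ratio of 2.44 became 9.21 without the deepest cells, 3.67 at a cycle share of 0.25%, 1.74 with Y-linked autonomy cells, 4.42 at 5 or more Itm2a UMIs, 1.22 with cycling cells included and 5.01 at 2000 to 5000 UMIs. The Bmyc ratio of 0.128, from 4 autonomy and 13 turnover UMIs, became 0 thinned, without the deepest cells, at 0.25% and at 2000 to 5000 UMIs, 0.523 with Y-linked autonomy cells and 0.479 with those of both libraries. Members called higher, 4 as reported, were 2 without the deepest cells, 2 with Xist cells (background 12.8%) and 0 at 0.25%. They were 0 with either choice of Y-linked cells (7.33% with those of autonomy), 1 with cycling cells included and 0 at 2000 to 5000 UMIs. Fewer UMIs put members under the count for a call. Members called lower, 0 as reported, were 1 thinned and 1 with cycling cells included.

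In resting cells, members called higher, 2 as reported, were 0 at 0.25% and 0 with either choice of Y-linked cells (background 20% with those of autonomy). Members called lower, 1 as reported, were 2 thinned, 2 at 1% and 0 at a 2-fold threshold. Called ratios of Itm2a-positive over resting cells, 10 as reported over both libraries, were 4 at 0.25%. Beyond the smaller numbers of UMIs the cause of these changes was not tested. Bmyc in autonomy and Srm in turnover Itm2a-positive cells rest on 18 or fewer UMIs in any of these ranges, and the depth allows no finer statement.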

Other observations

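The mature range, cells with 2 or more UMIs of S1pr1 and Klf2, held 103 autonomy and 2 turnover cells. In autonomy it had 170 CPM of Myc (144 to 199, 154 UMIs), 85.1 of Srm (67.1 to 106) and 42.0 of Odc1 (29.7 to 57.6). Myc there lay between its level in cells of 1% or more (152 CPM) and in Itm2a-positive cells (236 CPM), while Srm lay below both (213 and 130 CPM).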
